A study of Mus musculus with 12 samples.

Results

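The genes described here present antigen to T cells or mark stressed cells for natural killer cells. The list of 36 mouse genes, by symbol, holds the chains of major histocompatibility complex (MHC) class I and II, the peptide-loading complex, the immunoproteasome, ligands of the natural killer receptor NKG2D, and costimulatory ligands. A gene was measured where a probe set was annotated with its symbol alone, and the probe set with the highest mean was taken where there were several. By this rule 30 of the 36 genes were measured, out of 28853 probe sets on the array. H2-K1, H2-D1, H2-T23 and H2-DMb1 were held only by probe sets annotated with several genes, so their signals are given jointly. Raet1e and Ulbp1 had no entry in the annotation and were not analysed here.

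Class I molecules carry peptides that the proteasome cut in the cytosol. The transporter of Tap1 and Tap2 moves these peptides into the endoplasmic reticulum, where tapasin (Tapbp) helps to load them and Erap1 trims them. Fibroblasts carry class I at rest, and interferons raise it through the exchange of proteasome subunits (Psmb8, Psmb9 and Psmb10 in place of the constitutive ones) and through the transactivator Nlrc5. Class II is for the most part restricted to macrophages, dendritic cells and B cells, under the transactivator Ciita. NKG2D ligands such as Raet1d are class I relatives that hold no peptide, and natural killer cells read them as a sign of stress.

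Transcripts were measured, with 1 Affymetrix Mouse Gene 1.0 ST array per culture, in mouse embryonic fibroblasts from male C57BL/6J embryos (E12.5-14.5), at passage 5 and with no treatment. Of the 12 cultures, 3 lacked telomerase reverse transcriptase (mTERT KO) and 3 were their wild types (mTERT WT), while 3 lacked the telomerase RNA (mTR KO) and 3 were the wild types of that line (mTR WT). The knockout cultures carried the label G1, the first generation, and per the design text each of 3 sets held littermates of both genotypes. Fibroblast cultures from embryos can hold other cell types, and the labels name no sort or selection.

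All values are log2 signals as deposited, and a difference of 1 is a factor of 2. A signal was called above background where it exceeded the 95th percentile, within that array, of 1035 probe sets for olfactory receptors, which lay between 4.93 and 5.09. Tert lay at 5.51 to 5.74 in mTERT WT, against 4.75 to 4.99 in mTERT KO, without overlap. Terc, the telomerase RNA gene, lay at 4.65 to 4.94 in mTR WT, against 4.50 to 4.73 in mTR KO, and was below background in all 12 cultures, so it could not check the mTR labels. All 13 fibroblast markers were above background in every culture. Of 20 macrophage markers, 18 were above background in every culture and Cd163 in none. None of 5 B cell markers was above background in any culture, nor were 7 of 8 markers of T and NK cells. Culture mTR KO 1 had a differently worded extraction label and stood high in several gene groups, so values without it are given where it matters.

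Raet1d encodes RAE-1 delta, an NKG2D ligand of C57BL/6 mice. It was the 1 member that passed the test in any comparison. Its signal in cultures 1 to 3 was 8.31, 8.68 and 8.73 for mTERT WT, against 8.38, 8.83 and 8.58 for mTERT KO. For mTR WT it was 7.49, 7.56 and 7.15, against 7.89, 7.88 and 7.80 for mTR KO. Every mTR culture lay below every mTERT culture, and the gap between the lowest mTERT and the highest mTR culture was 0.42. Means were 8.57 ± 0.23 (SD, n = 3) in mTERT WT and 7.40 ± 0.22 (SD, n = 3) in mTR WT.

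**Figure D1:**
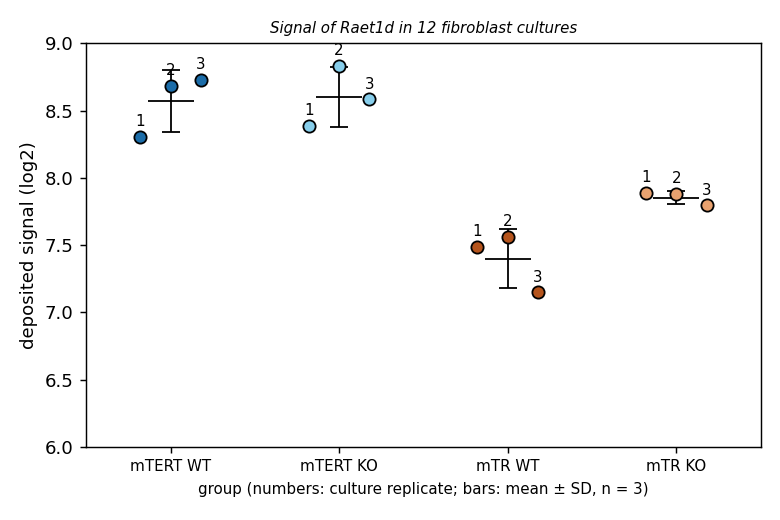
Points give the deposited log2 signal of Raet1d in each of 12 cultures by group, numbered by replicate, and black bars give the mean ± SD of 3 cultures. The 6 mTERT cultures lie between 8.31 and 8.83, and the 6 mTR cultures lie between 7.15 and 7.89.

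Between the wild types, mTR WT minus mTERT WT, Raet1d differed by −1.17 ± 0.14 (SE), a 2.25-fold lower signal in mTR WT (limma, adjusted p = 0.0416). Of all 28853 probe sets, 5 passed in this comparison, which is 0.0173%. Raet1d had the third largest moderated t in size, and the others called were Ahrr, Hoxa13, Smoc2 and a probe set with no gene. Over 21 alternative settings the difference stayed between −1.30 and −1.05, and the adjusted p ran from 0.00835 to 0.237, below 0.05 in 9. Those 9 include the fits with a fixed replicate block, in both lines or for the mTERT pairs alone. A fixed block leaves the spread between litters out of the error of this comparison. The call was lost with quantile normalization (adjusted p = 0.0594) and with only the 6 arrays compared (0.237). It was also lost without any 1 array other than mTERT WT 1 or mTR WT 2, with adjusted p from 0.0593 without mTERT KO 1 to 0.184 without mTR WT 3. Between the knockouts, a comparison chosen after the data were seen, mTR KO minus mTERT KO was −0.75 ± 0.14 (SE), a difference without overlap that did not pass (limma, adjusted p = 1.0). In that comparison 1 probe set passed (0.00347%), and no member did. Raet1d was 1 of 54 probe sets with all 6 mTR cultures below all 6 mTERT cultures, 0.187% of all, and 78 (0.27%) had the reverse.

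Within the mTR line all 3 knockout cultures read above all 3 wild types for Raet1d, by 0.45 ± 0.14 (SE), which did not pass (limma, adjusted p = 0.839). Leaving out each array or changing the setting kept that difference between 0.33 and 0.54, with adjusted p from 0.328 to 0.973. In the mTERT line the 2 groups overlapped. The difference between both knockout effects was 0.43 ± 0.20 (SE) and did not pass (limma, adjusted p = 1.0). Macrophage and interferon genes were measured beside it. The mean of the macrophage list was 7.56 to 9.07 in mTERT WT and 6.55 to 8.44 in mTR WT, and that of the interferon list was 6.29 to 7.70 and 5.72 to 6.65. Both ranges overlap between the wild types, and the genes of both lists were lower in mTR WT by median, at −0.80 and −0.74. The part of these cells or of interferon in the Raet1d values was not tested. In such bulk cultures fewer cells that express a gene and less RNA per cell cannot be told apart.

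Raet1e, on the same chromosome as Raet1d, also encodes an NKG2D ligand of this strain. The stretches at the start of both genes are shown because they are near-identical. They come from RefSeq windows of GRCm38.p6, run from 5′ to 3′ on the plus strand, and are aligned over 248 bases, with the differing bases in capitals.
Raet1d, chr10:22361644-22361891: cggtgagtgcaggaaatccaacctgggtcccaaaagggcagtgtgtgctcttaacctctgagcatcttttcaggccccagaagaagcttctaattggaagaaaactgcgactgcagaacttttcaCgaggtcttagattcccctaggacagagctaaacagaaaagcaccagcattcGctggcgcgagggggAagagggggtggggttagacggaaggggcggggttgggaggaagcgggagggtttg
Raet1e, chr10:22173249-22173496: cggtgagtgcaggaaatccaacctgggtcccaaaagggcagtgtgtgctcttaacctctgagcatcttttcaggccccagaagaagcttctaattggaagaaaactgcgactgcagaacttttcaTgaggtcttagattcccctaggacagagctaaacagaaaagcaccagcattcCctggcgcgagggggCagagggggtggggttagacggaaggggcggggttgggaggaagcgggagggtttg
Only 3 of the 248 bases differ, so the stretches are 98.8% identical. They lie for the most part before the start of the gene and do not show how alike the transcripts are. The annotation gives the probe set to Raet1d alone, and whether its probes also bind Raet1e RNA was not tested.

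The other relatives of the NKG2D ligands lay near or under background. H60b, a histocompatibility antigen that also binds NKG2D, was above background in 1 of 12 cultures, mTERT KO 2. It read 4.68, 4.79 and 4.90 in mTERT WT, against 4.64, 5.12 and 4.89 in mTERT KO, a difference of 0.10 ± 0.11 (SE; limma, adjusted p = 1.0). For the mTR wild types it was 4.75, 4.71 and 4.89, against 4.67, 4.70 and 4.59 for the knockouts. All 3 mTR KO cultures were lower than the wild types, by −0.13 ± 0.11 (SE; limma, adjusted p = 0.859), and the difference between the knockout effects was −0.23 ± 0.16 (SE; limma, adjusted p = 1.0). The H60b values lie on both sides of the background level. Mill1, a relative of class I, was above background in no culture. It read 4.30, 4.27 and 4.36 in mTERT WT, against 4.34, 4.04 and 4.09 in mTERT KO (difference −0.15 ± 0.10, SE; limma, adjusted p = 1.0), and 4.13 to 4.38 in the mTR line. Its sister gene Mill2 read 4.74 to 5.21 and was above background in 4 cultures.

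B2m encodes beta-2-microglobulin, the light chain of every class I molecule. It read 12.63, 13.08 and 12.74 in mTERT WT, 12.40, 13.08 and 12.58 in mTERT KO, 12.32, 12.78 and 12.60 in mTR WT, and in mTR KO 12.98, 12.72 and 12.51. The groups overlap in both lines, and the high cultures are mTERT WT 2, mTERT KO 2 and mTR KO 1. The classical heavy chains H2-K1 and H2-D1 showed the same cultures high. Their joint probe set listed first under H2-D1 read 9.48, 10.39 and 9.45 in mTERT WT, 9.28, 10.30 and 9.34 in mTERT KO, 8.73, 9.65 and 9.63 in mTR WT, and in mTR KO 10.34, 9.74 and 8.98. The one listed first under H2-K1 read 9.48, 10.21 and 9.26, then 9.26, 10.21 and 9.17, then 8.62, 9.42 and 9.40, then 10.26, 9.48 and 8.67 in the same order. In each line the spread within a group was wider than the distance between the group means. The probe set shared by H2-T23, which encodes the nonclassical Qa-1 chain, and the pseudogene H2-T-ps read 7.43, 8.19 and 7.32 in mTERT WT, 7.53, 8.02 and 7.23 in mTERT KO, 6.67, 7.36 and 7.17 in mTR WT, and in mTR KO 7.67, 7.60 and 6.97. H2-M3, which presents formylated peptides of bacteria and mitochondria, read 5.09 to 6.00, with mTERT KO 2 highest and mTR KO 3 lowest.

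In the loading complex Tap1, Tap2 and Tapbp had the same 3 highest cultures as these joint probe sets of the heavy chains, while Erap1 and Tapbpl shared 2 of them. Tap1 read 7.19, 7.75 and 6.76 in mTERT WT, 7.07, 7.68 and 6.84 in mTERT KO, 6.27, 6.80 and 6.44 in mTR WT, and in mTR KO 7.65, 6.91 and 6.35. Tap2 read 6.80, 7.03 and 6.52, then 6.89, 6.92 and 6.39, then 6.27, 6.37 and 6.31, then 6.95, 6.36 and 6.09 in the same order. For both chains of the transporter the mTR KO cultures spread from among the lowest of the series to among the highest. Between the wild types Tap2 did not overlap and was lower in mTR WT, by −0.47 ± 0.21 (SE), which did not pass (limma, adjusted p = 0.730). Tapbp read 8.78, 9.05 and 8.49 in mTERT WT, 8.43, 8.90 and 8.39 in mTERT KO, 8.11, 8.68 and 8.65 in mTR WT, and in mTR KO 8.92, 8.82 and 8.30, with the groups overlapping. Erap1, the trimming peptidase, read 7.78, 8.01 and 7.48 in mTERT WT, against 7.37, 7.78 and 7.22 in mTERT KO, a difference of −0.30 ± 0.24 (SE; limma, adjusted p = 1.0). It read 7.16, 7.84 and 7.71 in mTR WT, against 8.15, 7.76 and 7.34 in mTR KO, and the groups overlap in both lines. Tapbpl, a tapasin relative that edits peptides, stayed within 5.22 and 5.63.

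The inducible proteasome subunits differed in how widely they spread. Psmb8 (LMP7) read 6.24, 6.67 and 6.04 in mTERT WT, 6.15, 6.75 and 5.93 in mTERT KO, 4.98, 5.85 and 5.68 in mTR WT, and in mTR KO 6.88, 5.78 and 5.20. Its range of 1.89 over 12 cultures was the widest of the 30 measured members, and both ends lay in the mTR line. Psmb9 (LMP2) read 5.55, 5.92 and 5.84 in mTERT WT, 5.64, 6.06 and 5.53 in mTERT KO, 5.21, 5.44 and 5.39 in mTR WT, and in mTR KO 6.20, 5.71 and 5.42. The mTR difference of Psmb9 was 0.43 ± 0.19 (SE), with 1 knockout culture inside the wild-type range, and did not pass (limma, adjusted p = 0.839). It was 0.22 without mTR KO 1, with adjusted p from 0.460 to 0.990 over all settings. Between the knockout effects Psmb9 differed by 0.45 ± 0.27 (SE; limma, adjusted p = 1.0), and between the wild types by −0.42 ± 0.19 (SE; limma, adjusted p = 0.739), lower in mTR WT without overlap. Psmb10 read 6.27, 6.37 and 6.28 in mTERT WT, 6.04, 6.33 and 6.04 in mTERT KO, 5.85, 6.30 and 5.96 in mTR WT, and in mTR KO 6.58, 6.14 and 5.79. Psme1, a subunit of the PA28 cap that opens the proteasome, read 8.68, 8.88 and 8.75, then 8.69, 8.98 and 8.72, then 8.46, 8.81 and 8.66, then 8.87, 8.74 and 8.53. Its partner Psme2 read 7.33 to 8.05. The 6 constitutive proteasome genes, listed for comparison, had ranges of 0.25 to 0.47, against 0.52 to 1.89 for the 5 members here. A list of 5 endoplasmic reticulum genes (Calr, Canx, Pdia3, Hspa5 and Sec61a1) had ranges of 0.14 to 0.25.

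A total of 18 members were above background in all 12 cultures, and for 10 of them the 3 highest cultures were mTERT WT 2, mTERT KO 2 and mTR KO 1. Those are the 3 highest cultures of the interferon list, with means of 7.70, 7.62 and 7.45 against 5.72 to 7.05 in the others. The lowest culture was mTR WT 1 for 9 of the 18, and that culture was also lowest for the interferon list (5.72) and the macrophage list (6.55). A further 5 of the 18 shared 2 of the 3 highest cultures with the interferon list, and among the other 3 Nlrc5 and Cd1d1 shared 1 and Cd80 shared 0. Of all 15396 probe sets above background everywhere, 2.62% had these same 3 highest cultures. The 3 lowest cultures of the interferon list, mTR WT 1, mTR KO 3 and mTERT KO 3, were the lowest of 3 of the 18 members, against 0.539% of those probe sets. Of the others, 9 shared 2 of the lowest cultures, 4 shared 1, and Nlrc5 and Cd80 shared 0. Nlrc5 was read here by 1 of 19 probe sets and Cd80 by 1 of 2. The order of cultures in their other probe sets was not examined. The macrophage list, with mTR KO 1, mTERT WT 3 and mTERT KO 2 highest, shared all 3 with none of the 18 members and 2 with 11. Among all probe sets above background everywhere, 0.851% shared all 3. Both lists have mTR KO 1 and mTERT KO 2 among their highest cultures, so the 10 members named first share these with the macrophage list too. The 3 lowest cultures of the macrophage list were mTR WT 1, mTERT KO 1 and mTR KO 3. B2m shared all 3, against 1.4% of those probe sets, and 11 members shared 2 of them. The interferon genes Ifnb1 and Ifng were above background in no culture. All genes were read on the same 12 arrays and, by the design text, cultures share litters, so these orders are a description. The part of interferon or of macrophages in them was not tested.

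**Figure D2:**
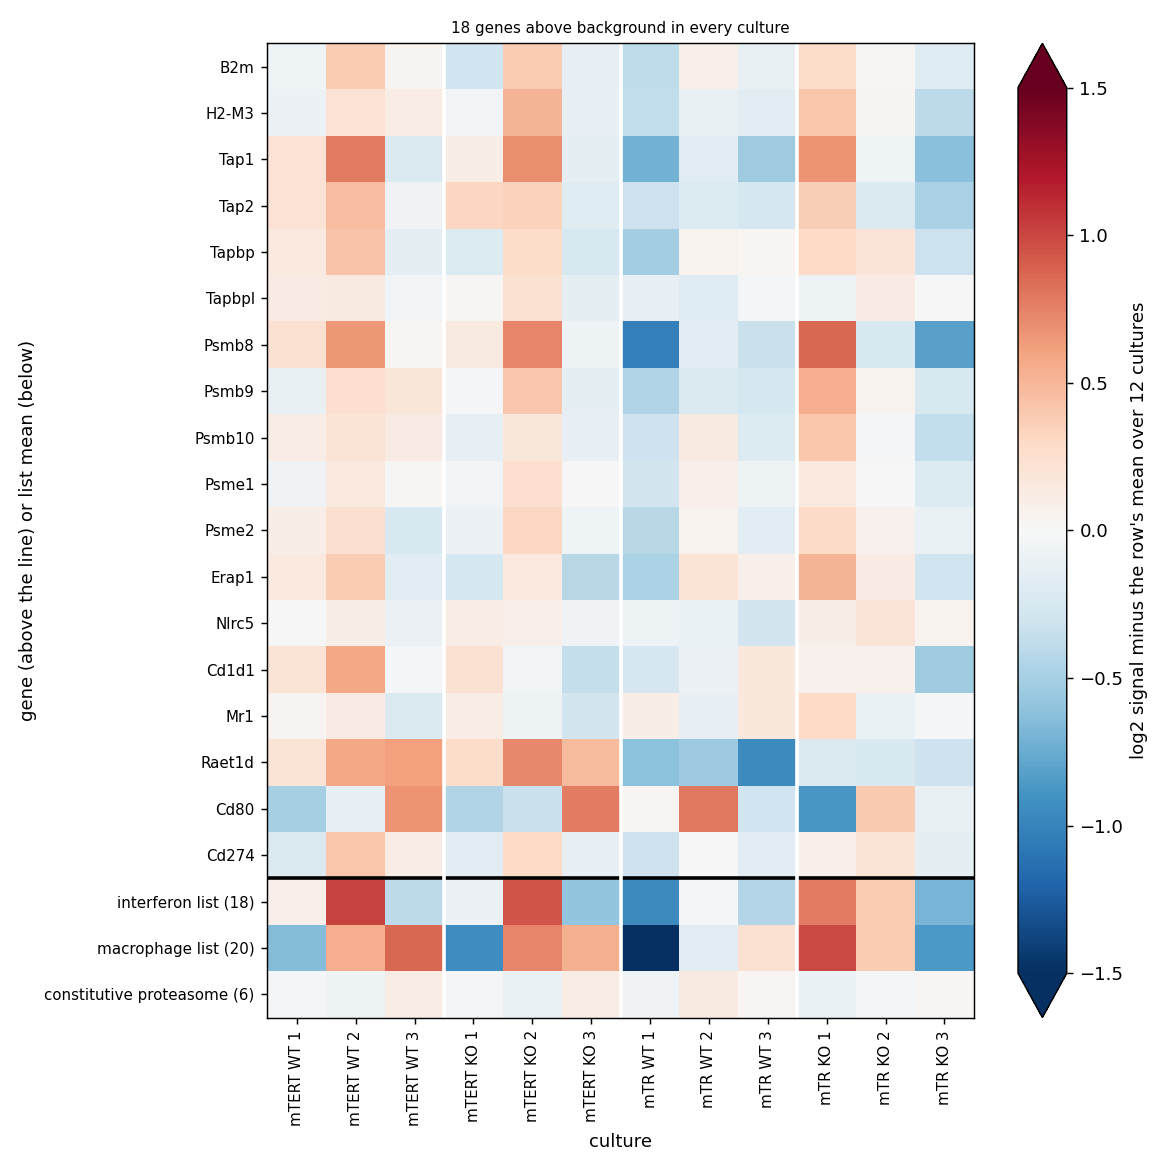
Colours give, for each culture (columns, by group), the log2 signal minus the mean over 12 cultures, for the 18 members above background everywhere and, below the line, for the means of the interferon, macrophage and constitutive proteasome lists. Red columns at mTERT WT 2, mTERT KO 2 and mTR KO 1 run through 10 of the 18 members and the interferon list. Nlrc5 and Cd80, each shown by 1 of its several probe sets, have other cultures highest.

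Cultures with the same number in the mTERT line resembled each other. For all 18 members the mean distance between mTERT WT and mTERT KO cultures of the same number was smaller than between cultures of different numbers, with medians of 0.13 and 0.32. For Tap1 these distances were 0.09 and 0.61, and for Cd80 they were 0.12 and 0.79. The same holds across the array, where the deviations of same-numbered mTERT cultures correlated at 0.674, 0.733 and 0.790. In the mTR line they correlated at −0.156, 0.289 and −0.377, so the numbers were not taken as pairs there. Across numbers, mTR WT 1 correlated with mTR KO 3 at 0.319 and mTR WT 3 with mTR KO 1 at 0.372. The remaining correlations in that line ran from −0.240 to −0.005. Whether cultures of different numbers in the mTR line were littermates was not tested. With the numbers as a fixed block, 0 members passed in the mTERT comparison, as without it. Differences within these pairs, mTERT KO minus mTERT WT of the same number, were taken after the data were seen. Erap1 was lower in all 3 pairs, by −0.40, −0.23 and −0.26, as were Tapbp (−0.35, −0.15 and −0.10) and Psmb10 (−0.22, −0.040 and −0.24). H2-Ab1 was higher in all 3 pairs, by 0.090, 0.28 and 0.074, with signals near background. These 4 of 30 members went one way in all 3 pairs, against 25.1% of all probe sets, and the other members went both ways.

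Nlrc5 encodes the transactivator of class I genes. Its probe set with the highest mean read 7.47, 7.55 and 7.38 in mTERT WT, 7.58, 7.54 and 7.42 in mTERT KO, 7.39, 7.37 and 7.19 in mTR WT, and in mTR KO 7.55, 7.67 and 7.52. All 3 mTR KO cultures lay above the mTR wild types, by 0.26 ± 0.08 (SE), which did not pass (limma, adjusted p = 0.839, and 0.438 to 0.973 over the alternatives). The difference between the knockout effects was 0.22 ± 0.11 (SE; limma, adjusted p = 1.0). The array holds 19 probe sets annotated with Nlrc5 alone, of which 5 were above background everywhere and 3 nowhere. The chosen probe set had a mean of 7.47 over the 12 cultures, against 4.05 to 5.73 for the others, so the level depends on the probe set. All 19 had a higher mean in mTR KO than in mTR WT, by 0.10 to 0.89, with a median of 0.30. That count was not repeated without mTR KO 1. Unadjusted p in that comparison (limma) was 0.00605 for the chosen probe set and 0.0491 for another. For the rest it ran from 0.0651 to 0.614. These probe sets read the same cultures and are not independent of each other. Ciita, the transactivator of class II, read 4.41, 4.36 and 4.33 in mTERT WT, 4.36, 4.29 and 4.36 in mTERT KO, 4.29, 4.21 and 4.27 in mTR WT, and in mTR KO 4.21, 4.36 and 4.32, below background throughout.

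The class II genes were near background in all 12 cultures. H2-Aa read 4.57, 4.36 and 4.45 in mTERT WT, 4.35, 4.43 and 4.41 in mTERT KO, 4.58, 4.39 and 4.33 in mTR WT, and in mTR KO 4.25, 4.35 and 4.39, below background throughout. Its mTR difference was −0.10 ± 0.08 (SE; limma, adjusted p = 0.853). H2-Ab1, the beta chain of the same molecule, read 4.87, 4.69 and 4.76 in mTERT WT, 4.96, 4.97 and 4.84 in mTERT KO, 5.48, 4.98 and 4.92 in mTR WT, and in mTR KO 4.77, 5.00 and 5.13. It was above background in 4 cultures, and the highest of them, mTR WT 1, is the culture with the lowest macrophage mean. Its differences were 0.15 ± 0.14 (SE; limma, adjusted p = 1.0) for mTERT, −0.16 ± 0.14 (SE; limma, adjusted p = 0.860) for mTR and −0.31 ± 0.20 (SE; limma, adjusted p = 1.0) between both effects. Between the wild types it was higher in mTR WT by 0.35 ± 0.14 (SE) without overlap and did not pass (limma, adjusted p = 0.676). Without mTR WT 1 its mTR difference was 0.017, with the opposite sign.

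Cd74, the invariant chain, read 4.29, 4.29 and 4.18 in mTERT WT, 4.44, 4.25 and 4.30 in mTERT KO, 4.48, 4.31 and 4.36 in mTR WT, and in mTR KO 4.35, 4.41 and 4.30. Below background in every culture, it differed by 0.076 ± 0.073 (SE; limma, adjusted p = 1.0) for mTERT, by 0.13 ± 0.07 (SE; limma, adjusted p = 0.806) between the wild types, and by −0.10 ± 0.10 (SE; limma, adjusted p = 1.0) between both effects. H2-Eb1 read 4.92, 4.80 and 4.93, then 4.96, 4.97 and 4.90, then 4.98, 4.77 and 4.65, then 4.80, 5.11 and 4.90 in the same order of groups, above background in 3 cultures. H2-DMa, part of the peptide exchanger of class II, read 4.77, 4.72 and 4.80, then 4.63, 4.79 and 5.13, then 4.73, 4.77 and 4.80, then 4.69, 4.76 and 4.83, above background in 1. H2-Oa, which inhibits that exchanger, was above background in none and read 4.26 to 4.51. The probe set shared by H2-DMb1 and H2-DMb2 read 4.66 to 5.23. With signals at or near background, the part of macrophages in the class II values was not tested. Ctss, the lysosomal protease that cuts the invariant chain, read 7.60 to 10.39, and the macrophage marker Cd68 read 7.33 to 10.27, both lowest in mTR WT 1. Of 8 dendritic cell markers 5 were above background in no culture.

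**Figure D3:**
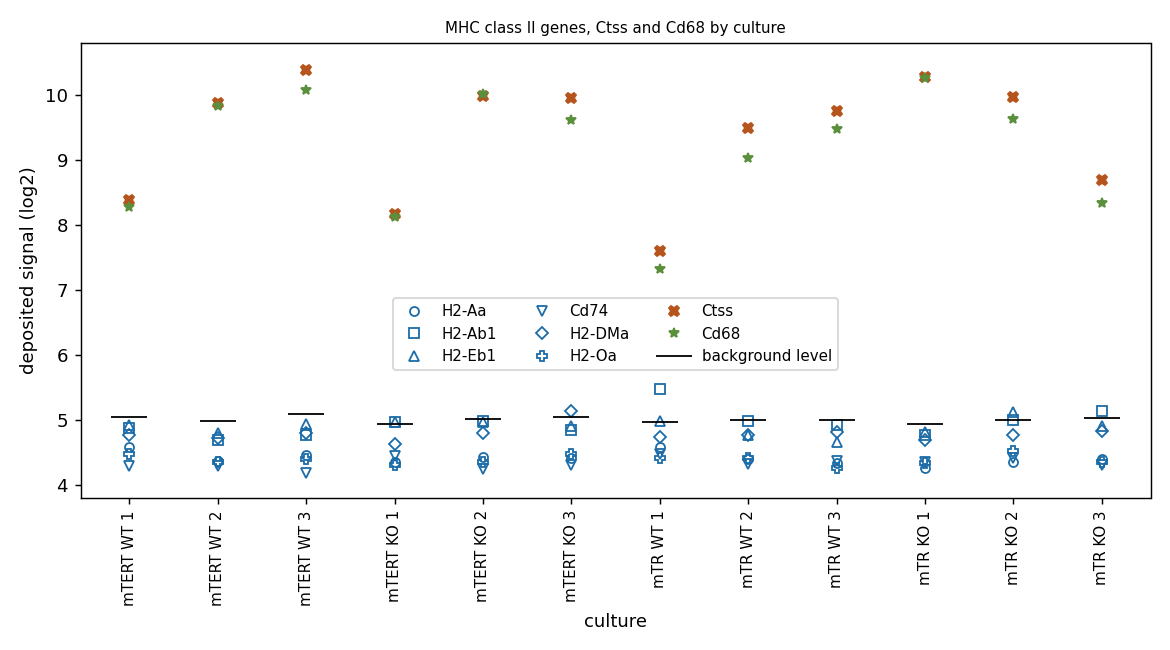
Log2 signals of 6 class II genes (blue), of Ctss and of Cd68 in each culture, with the background level of each array as a black dash. The class II genes stay between 4.18 and 5.48 in cultures where Ctss ranges from 7.60 to 10.39.

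Cd1d1 and Mr1 present lipids and vitamin B metabolites to unconventional T cells. Cd1d1 read 5.76, 6.15 and 5.54 in mTERT WT, 5.79, 5.52 and 5.20 in mTERT KO, 5.31, 5.48 and 5.72 in mTR WT, and in mTR KO 5.63, 5.62 and 5.03. Its mTERT difference of −0.32 ± 0.21 (SE) did not pass (limma, adjusted p = 1.0). Mr1 read 7.73, 7.81 and 7.47 in mTERT WT, 7.80, 7.61 and 7.41 in mTERT KO, 7.79, 7.56 and 7.85 in mTR WT, and in mTR KO 7.99, 7.59 and 7.67. Its range over 12 cultures was 0.58. Between the wild types Mr1 differed by 0.062 ± 0.14 (SE; limma, adjusted p = 0.959), or by −0.035 without mTERT WT 3.

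Cd80 and Cd86 encode B7-1 and B7-2, which costimulate T cells through CD28, and Cd274 encodes the inhibitory ligand PD-L1. Cd80 read 6.95, 7.33 and 8.12 in mTERT WT, 6.998, 7.11 and 8.21 in mTERT KO, 7.47, 8.24 and 7.15 in mTR WT, and in mTR KO 6.57, 7.84 and 7.34. It shared none of its 3 highest cultures with the interferon list, and mTR KO 1 was its lowest. A second probe set for Cd80, also above background in all 12 cultures and with a mean of 6.17 against 7.44, gave other directions. Its mTR difference was 0.072 against −0.37 for the first, and its difference between the wild types was −0.12 against 0.16. Cd86 read 5.03, 5.47 and 5.24 in mTERT WT, 4.72, 5.60 and 5.51 in mTERT KO, 4.39, 5.32 and 4.85 in mTR WT, and in mTR KO 5.89, 5.28 and 4.58. Cd86 was above background in 7 cultures and below it in mTERT WT 1, mTERT KO 1, mTR WT 1, mTR WT 3 and mTR KO 3. Cd274 read 5.28, 5.92 and 5.61, then 5.33, 5.79 and 5.37, then 5.18, 5.50 and 5.33, then 5.57, 5.71 and 5.36 in the order mTERT WT, mTERT KO, mTR WT and mTR KO. Its neighbour Pdcd1lg2, which encodes PD-L2, was above background in no culture, at 4.09 to 4.45. In all 4 genes the groups overlapped in the mTERT and the mTR line, and none passed. Whether macrophages contribute to Cd86 here was not tested.

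**Figure D4:**
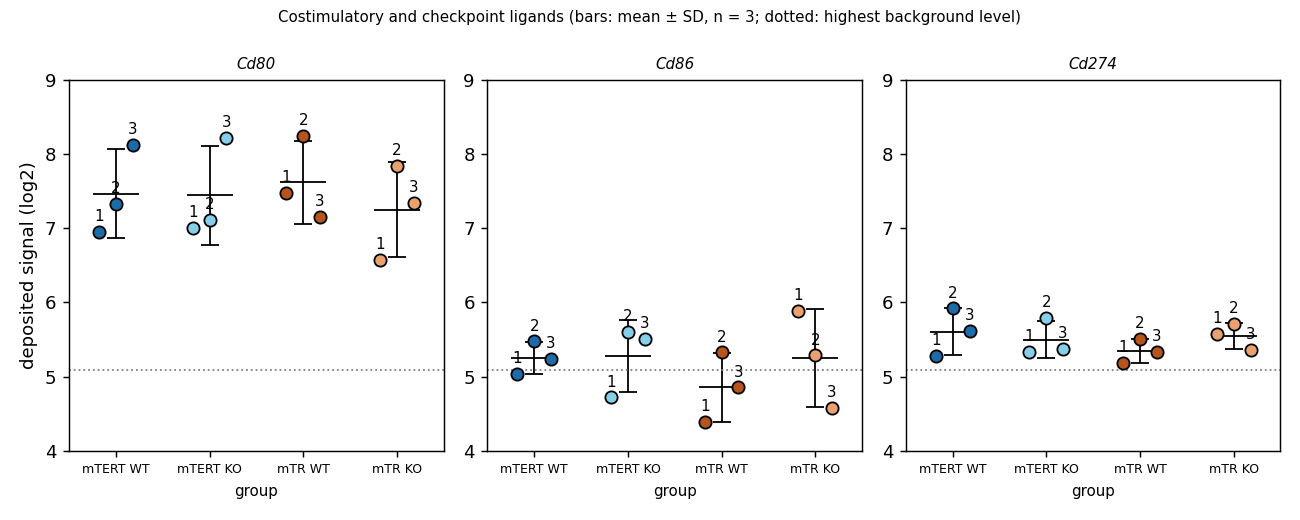
Points give the log2 signals of Cd80, Cd86 and Cd274 in each culture by group, numbered by replicate, with black bars for the mean ± SD of 3 cultures and a dotted line at the highest background level of any array (5.09). Cd80 spreads from 6.57 to 8.24, with the highest and the lowest culture both in the mTR line.

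The comparison of mTERT KO with mTERT WT asks what loss of the reverse transcriptase does in the first generation. None of the 30 members passed (limma, 5%), where 1 of 28853 probe sets did (0.00347%). With the replicate number as a fixed block in both lines 0 probe sets passed, and 1 with a block for the mTERT pairs alone. At an unadjusted p below 0.05 none of the members stood either, against 1.92% of all probe sets. In none were the 3 knockout cultures all above or all below the 3 wild types, against 2.88% higher and 3.09% lower of all probe sets, and within the same-numbered pairs 4 members went one way in all 3. Of the members 13 were higher and 17 lower in the knockout, with a median difference of −0.027 beside 0.0011 over all probe sets, and leaving out 1 array of the line moved it between −0.090 and 0.051. All 5 loading complex genes were lower, by −0.30 to −0.038, and 4 of 6 class II genes were higher, with overlap in each.

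The comparison of mTR KO with mTR WT asks the same of the telomerase RNA. Again none of the 30 members passed (limma, 5%), and neither did any of the other probe sets (0%). At an unadjusted p below 0.05 stood Psmb9, Nlrc5 and Raet1d, 3 of 30, against 5.82% of all probe sets. Without overlap, Nlrc5 and Raet1d were higher, against 5.33% of all probe sets, and H60b was lower, against 6.07%. A total of 23 members were higher in the knockout and 7 lower, with a median difference of 0.14 beside 0.0009 over all probe sets. That median was 0.0485 without mTR KO 1 and 0.079 without mTR WT 1. All 5 loading complex genes and all 5 immunoproteasome genes were higher, with medians of 0.18 and 0.26, and none passed. This count rests on mTR KO 1. Without that culture the mTR KO mean lay below the mTR WT mean for Tap2, Erap1, Psmb8, Psmb10 and Psme1, and above it for the rest. With all 3 knockout cultures, all 20 macrophage markers and all 18 measured interferon genes were higher too, with medians of 0.73 and 0.64, and none of them passed. The macrophage means ran from 6.55 to 8.44 in mTR WT, against 7.35 to 9.20 in mTR KO, the interferon means from 5.72 to 6.65 and from 5.98 to 7.45. The part of these genes in the difference of the members was not tested.

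**Figure D5:**
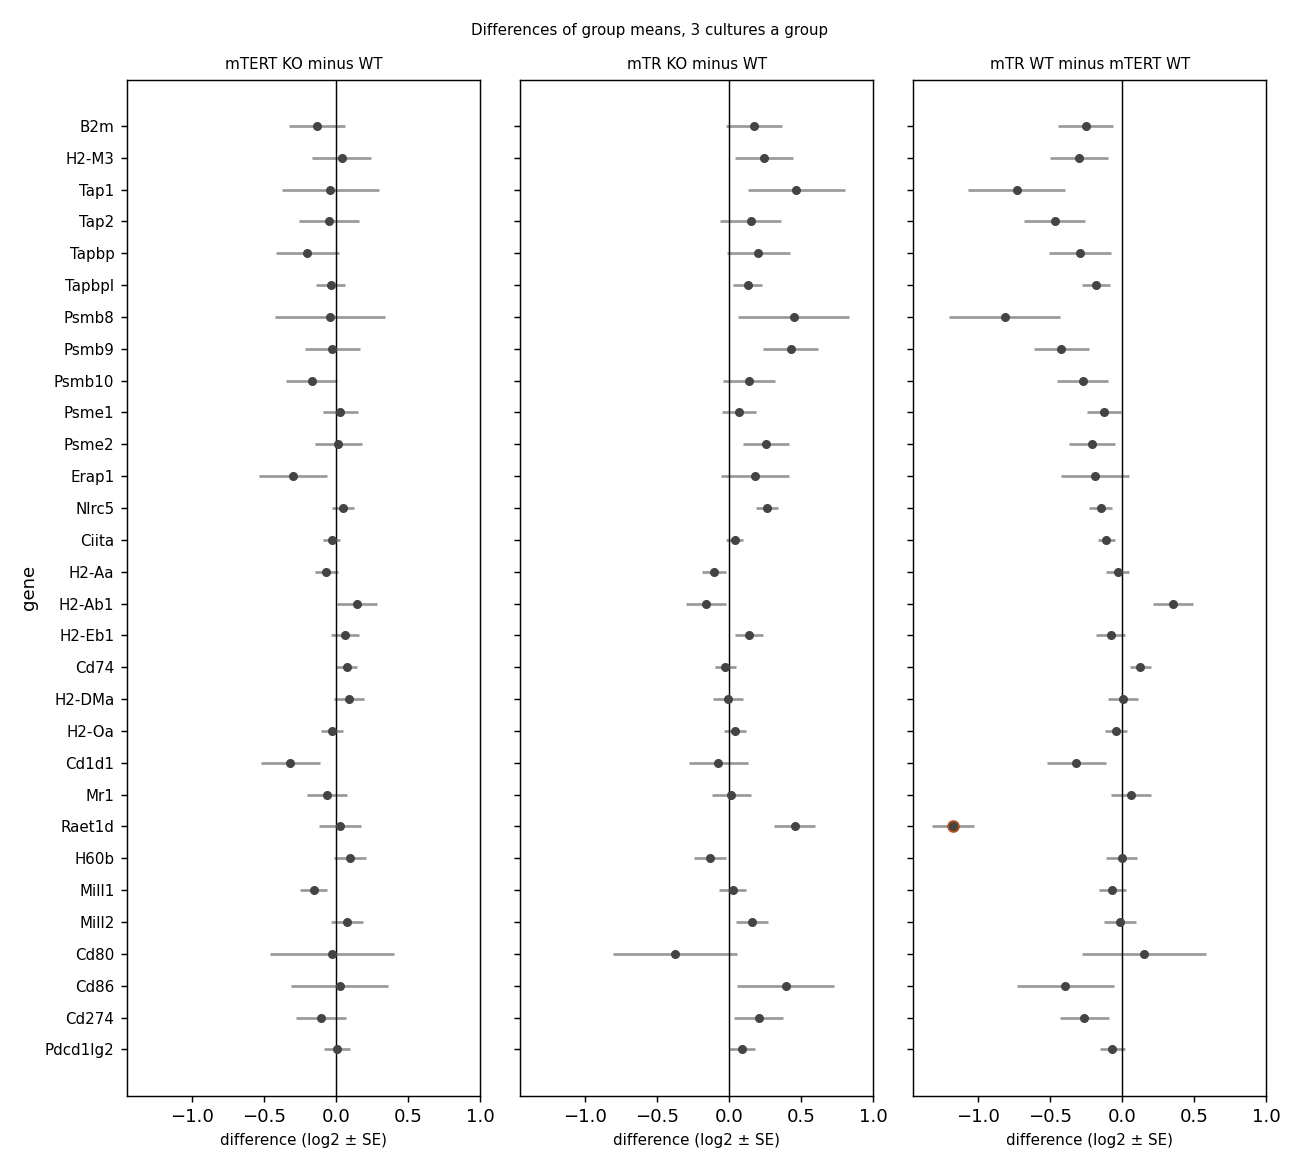
Differences of group means (log2 ± SE of the fit, 3 cultures a group) of the 30 measured members for mTERT KO minus WT, mTR KO minus WT, and mTR WT minus mTERT WT. Raet1d between the wild types (orange, −1.17) is the one value with an adjusted p below 0.05.

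The difference between both knockout effects, mTR minus mTERT, passed for 0 of the 30 members and for 0% of all probe sets (limma, 5%). At an unadjusted p below 0.05 it stood for none of the members, against 3.34% of all probe sets. The median over the members was 0.19 beside −0.0031 over all probe sets, with 24 positive and 6 negative, and it was 0.094 without mTERT KO 3 and 0.11 without mTR KO 1. A difference between the lines in how these genes respond was not shown.

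The wild types of both lines, mTR WT minus mTERT WT, give the baseline. Of the members 25 were lower in mTR WT and 5 higher, with a median of −0.17 beside −0.0057 over all probe sets, and it was −0.11 without mTERT WT 2. Only Raet1d passed. With the replicate number as a fixed block 44 probe sets passed, and 17 with a block for the mTERT pairs alone, Raet1d among them both times. Such a block leaves the spread between litters out of the error of a comparison between lines. At an unadjusted p below 0.05 stood Tap2, H2-Ab1 and Raet1d, 3 of 30, against 6.78% of all probe sets. Without overlap 6 members were lower, H2-M3, Tap2, Psmb8, Psmb9, Ciita and Raet1d, against 5.91% of all probe sets, and H2-Ab1 and Cd74 were higher, against 7.14%. Ciita and Cd74 were below background in all of these cultures. Both comparisons of the mTR wild types use the same 3 arrays, so the lower values here and the higher values in mTR KO share them. All 20 macrophage markers were lower in mTR WT, with a median of −0.80, and 17 of 18 interferon genes were, with a median of −0.74, and none of them passed. Between the knockouts, 15 members were higher and 15 lower in mTR KO, with a median of 0.0058 beside −0.0048 over all probe sets. Only Raet1d reached an unadjusted p below 0.05, against 2.99% of all probe sets, and it alone did not overlap, lower against 3.93% of all probe sets, while none was higher without overlap against 3.31%.

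Other genes of the pathway, listed by role, were taken beside the members. Of 9 further class I genes with a probe set of their own 4 were above background everywhere and 4 nowhere, and 7 were higher and 2 lower in mTR KO. H2-Q4, which encodes a Qa class I chain, had a range of 2.43 and read 7.89 to 8.13 in mTERT WT 2, mTERT KO 2 and mTR KO 1, against 5.70 to 6.78 in the others. Of 12 interferon-gamma responsive GTPases listed, 6 had a probe set of their own, with 2 above background everywhere and 1 nowhere. All 6 were higher in mTR KO, with a median of 0.47, and 5 of 6 were lower in mTERT KO. Of 12 interferon receptor and signal genes 8 were higher in mTR KO and 7 in mTERT KO. Of 11 factors that bind MHC promoters 5 were higher and 6 lower in mTR KO, and Irf1, an interferon-induced activator, read 6.25 to 7.004. Of 12 other stress and immune ligands 8 were above background everywhere, among them Pvr (8.10 to 9.24) and Cd47 (9.27 to 10.15), and 7 were higher in mTR KO. None of the genes in these lists passed in the mTERT or the mTR comparison.

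Promoter windows from 250 bases before to 50 after the start, from RefSeq for GRCm38.p6, were at hand for 27 of the 36 genes. They were searched because 10 of the 18 members above background everywhere had the 3 highest cultures of the interferon list. The core of the interferon-stimulated response element (ISRE) is GAAA, 2 bases of any kind and GAAA again, on either strand. It was in 3.44% of all 32851 windows and in 4 of the 31 windows of these genes, for 4 of the 27 genes. The gamma-activated site (GAS), TTCNNNGAA on either strand, was in 8.3% of all windows and in 2 of the 31, those of Psmb8 and H2-M3. A CCAAT box was in 37.4% of all windows and in 17 of the 31, for 16 of the 27 genes. Of the genes with an ISRE core or a GAS, B2m, Psme1, Psmb8 and H2-M3 are among the 10 members. Erap1 shared 2 of the 3 highest cultures, and H2-T23 has no probe set of its own. The 30-base stretches around the first 2 motifs follow, on the strand of each gene, with the motif in capitals.
B2m, ISRE core, chr2:122147538-122147567 (+): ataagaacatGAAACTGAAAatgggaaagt
H2-T23, ISRE core reversed, chr17:36032806-36032835 (−): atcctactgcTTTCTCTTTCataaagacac
Erap1, ISRE core reversed, chr13:74639839-74639868 (+): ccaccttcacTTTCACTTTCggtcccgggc
Psme1, ISRE core reversed, chr14:55578493-55578522 (+): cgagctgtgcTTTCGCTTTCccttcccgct
Psmb8, GAS, chr17:34198088-34198117 (+): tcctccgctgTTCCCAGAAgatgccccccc
H2-M3, GAS, chr17:37270015-37270044 (+): attaaaaatgTTCTAGGAAacgtgacatta
No motif in this set overlapped another of them. Psmb9 and Tap1 lie head to head on opposite strands of chromosome 17, and their windows share 275 of 300 bases, so one stretch precedes both genes. Both had mTERT WT 2, mTERT KO 2 and mTR KO 1 as their 3 highest cultures. A match of letters describes the window and does not show that a factor binds there.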

How the data were processed

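The data were 12 arrays of cultured mouse embryonic fibroblasts, grouped by the labels. The authors deposited log2 signals per probe set, made with GCOS 1.4, Affymetrix Expression Console and PLIER per the submitters' processing notes. How arrays were normalized to each other is not stated in the labels or the table, and the deposited log2 values were used as they stood, since array quantiles differed by at most 0.0844. Genes were named from the platform annotation, and the gene IDs of all 30 measured members matched RefSeq. Array number limits the precision, and p-values set a difference against the spread between these cultures, taken as independent. The main fit left out the likeness of same-numbered mTERT cultures, which the blocked fits take up.

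Means of the 4 groups were estimated over 12 arrays and 28853 probe sets with limma 3.58.1 in R 4.3.3, with Benjamini-Hochberg adjustment over all probe sets at 5%, 8 residual and 3.14 prior degrees of freedom. It was tested on simulated data. Differences with SE were printed for the 3 highest and 3 lowest moderated t among the members of each contrast, and values per culture for these and for genes of a set role. The members and lists were chosen with earlier results of these data known. The replicate numbers were taken as pairs in the mTERT line from the correlations of their deviations (0.674, 0.733 and 0.790) and were not in the mTR line. The fixed block in both lines and the random block used the mTR numbers all the same. Differences within those pairs were taken after the data were seen. Each analysis was repeated with quantile normalization, median centring, a replicate block (fixed or random), the dimmer probe sets left out, the mean of a gene's probe sets, a trended and robust variance, only the arrays compared, and each array left out. Python 3.11.15 with matplotlib 3.10.9 drew the plots.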

Additional observations from a re-analysis of the deposited data

How the results depend on the processing

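Over 21 alternatives, 492 of 507 values of the 25 named results kept their direction and their side of the threshold. The median over the members turned sign in the mTERT comparison without mTERT KO 1 (0.019), mTERT KO 3 (0.035) or mTERT WT 2 (0.051), and was lowest without mTERT KO 2 (−0.090). In the mTR comparison it ran from 0.0485 without mTR KO 1 to 0.20 in the brighter probe sets. Between the knockouts it lay between −0.047 and 0.056, on both sides of 0. Among the 507 values a call was lost in 12, each of them Raet1d between the wild types. The sign turned in 3, all from values that had not passed. H60b in the mTERT comparison was −0.021 without mTERT KO 2 and at most 0.22 without other arrays. H2-Ab1 in the mTR comparison was 0.017 without mTR WT 1 and down to −0.26 otherwise. Mr1 between the wild types was −0.035 without mTERT WT 3 and up to 0.15 otherwise. The cause was not tested. Members called between the wild types numbered 0 in a fit of the 6 wild-type arrays alone, where fewer arrays estimate the spread, 0 with quantile normalization, and 0 to 1 without single arrays. Members called stayed at 0 in the other comparisons under every alternative run. Probe sets called between the wild types numbered 1 in that fit, 0 with quantile normalization, and 0 to 11 without single arrays. With the replicate block they numbered 44, and 17 with the block for the mTERT pairs alone. In the mTERT comparison they numbered 0 with the replicate block, with only the 6 arrays of the line and with quantile normalization. There they numbered 1 with the block for the mTERT pairs alone, and 0 to 2 without single arrays. In the mTR comparison they numbered 0 to 3 without single arrays. Between the knockouts, a comparison added after the data were seen, they numbered 5 with only the arrays compared, 0 with the replicate block, and 0 to 8 without single arrays. The blocked fits changed no call of a member. H60b, Mill1, Mill2 and the class II genes lay near or below background, which limits what their differences show.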
